A study of Rattus norvegicus with 10 samples.

Results

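The dystrophin and dystroglycan complex genes described here are Dmd, Utrn, Dag1, Dtna, Sntb1, Sgcb and Sgce, read from bulk RNAseq counts of primary rat oligodendrocytes (OLs) and oligodendrocyte progenitor cells (OPCs). They are 7 of the 16129 genes in the deposited table that compares OLs given a miR-145 mimic with their control, and counts were deposited for 23487 genes. The genes were found by symbol, each on a single gene ID, and were selected on measured values, because the rise of Dmd with the mimic in that comparison was known when the set was drawn up. Differences between the miR-145 mimic and its control are therefore given as a description with no test. All 7 genes passed the filter on low counts in each of the 5 comparisons used.

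Cells were grown from the cerebral cortex of P1-P3 Sprague-Dawley rat pups, and 5 groups of 2 libraries each were sequenced. OLs were assayed 5 days after transfection with a miR-145-5p mimic (OL miR-145), with miR-145-5p and miR-219 mimics together (OL miR-145+miR-219) or with a scrambled mimic (OL miR-ctl). OPCs were assayed 24 h after transfection with a miR-145-5p inhibitor (OPC anti-miR-145) or a scrambled inhibitor (OPC anti-miR-ctl). Every oligonucleotide was used at 30 nM, and no genetic alteration is given for any group. The titles of the OL miR-145 libraries give miR-145 only, but their treatment tag adds miR-219, and the titles were followed. The paper's methods paragraph on RNAseq names lentiviral delivery, whereas the labels describe transfection of mimics. The paper's Results also state that miR-145-5p mimics were used in place of lentivirus for the RNAseq. OPCs were shaken off mixed glial cultures and enriched by letting other cells adhere, so other cell types can be present.

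Dystroglycan, made from Dag1, sits in the cell membrane and binds laminins, agrin and neurexins outside the cell through sugar chains that a series of enzymes builds on it. Inside the cell it binds dystrophin or utrophin, which hold on to actin, while dystrobrevins and syntrophins attach to them as adaptors and the sarcoglycans and sarcospan brace the assembly in the membrane. In the brain the complex is best known from astrocyte endfeet, where it anchors the water channel aquaporin-4, and dystroglycan on OLs takes part in their contact with laminin.

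The oligonucleotides are shown through the microRNAs they copy or block, because the groups differ in nothing else that the labels name within a cell stage. The labels state that the mimic matches mature miR-145-5p, and they name miR-219 without its arm, for which miR-219a-5p is shown. Bases 2 to 8, the seed through which a microRNA finds its targets, are in capitals in these RefSeq mature sequences of the GRCr8 assembly, where miR-145-5p lies at chr18:57370033-57370055 and miR-219a-5p at chr3:33516561-33516581, both on the minus strand.
rno-miR-145-5p: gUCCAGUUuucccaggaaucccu
rno-miR-219a-5p: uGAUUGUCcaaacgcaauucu
The seeds are different. Levels of the mature microRNAs were not analysed here.

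Dmd counts sum every transcript of the gene, and RefSeq lists 3 starts for it on GRCr8, with promoter windows of 250 bases before to 50 bases after each start. The first and the second start lie 2.07 Mb apart on the plus strand of chromosome X, and the third lies 31 bases beyond the second. These windows are printed because a count per gene cannot tell transcripts of the distant starts apart. Capitals mark GGGCGG, known as the GC box, and TATAAA, the TATA box, on either strand, where the opposite strand reads CCGCCC and TTTATA.
Dmd, first start, chrX:51205836-51206135: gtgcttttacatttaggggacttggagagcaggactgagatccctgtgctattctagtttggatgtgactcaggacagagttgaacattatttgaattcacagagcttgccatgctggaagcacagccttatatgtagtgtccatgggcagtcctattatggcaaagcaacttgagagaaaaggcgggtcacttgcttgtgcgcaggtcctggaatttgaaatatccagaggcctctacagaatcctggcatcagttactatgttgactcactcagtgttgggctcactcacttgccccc
Dmd, second start, chrX:53278763-53279062: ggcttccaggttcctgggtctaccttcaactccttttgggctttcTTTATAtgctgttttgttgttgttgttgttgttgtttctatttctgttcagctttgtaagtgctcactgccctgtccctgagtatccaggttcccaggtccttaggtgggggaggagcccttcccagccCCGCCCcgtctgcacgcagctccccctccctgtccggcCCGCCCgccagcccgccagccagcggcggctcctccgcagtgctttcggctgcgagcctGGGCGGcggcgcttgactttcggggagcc
The first window had a GC content of 47.3% with 2 CpG dinucleotides and held neither motif. The second had a GC content of 61.3% with 16 CpG dinucleotides and held 3 GC boxes and 1 TATA box. Over the 33469 promoter windows of the table the median GC content was 51.7% with 7 CpG, and 33.1% held a GC box and 14.2% a TATA box. TTCCGG, the N box known from synapse genes of muscle, stood in 15% of all windows and in none of the windows of the 5 complex genes that were matched. A match of letters is a description of the window only.

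Library totals ran from 33505706 to 42684206 estimated counts, and replicates of every group differed by more than counting error (chi-square per degree of freedom from 9.66 to 65.4). The study's reporting form calls its replicates biological and counts an enriched primary culture from a single animal (there called a mouse) as a replicate, while the labels only number the libraries. The p-values rest on the spread between the 2 numbered libraries of a group. The fit pools that spread over its groups and draws it towards that of other genes. Levels are in CPM, counts scaled to the library total, after TMM normalization over the 10 libraries. They are not scaled to transcript length, so a level is compared between groups and never between genes. Against their labels, OLs held 8 maturing OL markers, among them Mbp, Mag, Mog and Myrf, at a summed level of 15478 to 34050 CPM and OPCs at 1100 to 1312 CPM. Replicate 2 of each OL group had the higher sum. The sum of 5 OPC markers was 1371 to 2013 CPM in OLs and 3586 to 4630 CPM in OPCs. OLs also held 8 astrocyte markers at a sum of 5344 to 13015 CPM, against 404 to 655 CPM in OPCs, and 8 microglia markers were at 306 to 868 CPM in OLs and 805 to 993 CPM in OPCs.

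Dmd (ENSRNOG00000046366), which encodes dystrophin, was at 68.5 and 56.6 CPM in the OL miR-145 libraries. It was at 60.2 and 34.2 CPM with both mimics and at 26.5 and 25.1 CPM in OL miR-ctl. It was at 2.98 and 3.20 CPM in OPC anti-miR-ctl and at 1.11 and 1.50 CPM in OPC anti-miR-145. The order of the groups was thus OL miR-145, OL miR-145+miR-219, OL miR-ctl, OPC anti-miR-ctl and OPC anti-miR-145, and only the first neighbours in that order overlapped. The lowest of these values rests on 44 estimated counts and the highest OL value on 2384, so counting error is larger in OPCs. In bulk RNA, fewer cells of a type and less RNA per cell cannot be told apart.

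Utrn (ENSRNOG00000011058), whose product utrophin can stand in for dystrophin, was at 50.7 and 57.8 CPM in OL miR-145. It was at 53.2 and 45.0 CPM with both mimics and at 41.3 and 36.3 CPM in OL miR-ctl. In OPCs it was at 20.4 and 19.7 CPM with the control and at 10.6 and 15.1 CPM with the inhibitor. Its groups stood in the same order as those of Dmd, and again only the OL miR-145 libraries and those with both mimics overlapped among neighbours.

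Dag1 (ENSRNOG00000019400) was at 582 and 542 CPM in OL miR-145, at 527 and 484 CPM with both mimics and at 554 and 495 CPM in OL miR-ctl. It was at 424 and 406 CPM in OPC anti-miR-ctl and at 341 and 380 CPM in OPC anti-miR-145. The OL miR-ctl libraries overlapped with both mimic groups, and the OPC groups lay below all OLs and did not overlap each other. Dtna (ENSRNOG00000016671), which encodes the adaptor alpha-dystrobrevin, was at 133 and 108 CPM in OL miR-145, at 127 and 96.9 CPM with both mimics and at 80.1 and 78.7 CPM in OL miR-ctl. It was at 53.7 and 52.4 CPM in OPC anti-miR-ctl and at 42.0 and 47.0 CPM in OPC anti-miR-145, so that only the 2 mimic groups overlapped.

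Sntb1 (ENSRNOG00000004821) encodes beta-1-syntrophin, an adaptor that brings signalling proteins to the complex, and it had another order of groups. It was at 19.6 and 17.5 CPM in OPC anti-miR-ctl, above every other library. It was at 1.51 and 1.54 CPM in OPC anti-miR-145 and at 2.99 and 1.96 CPM in OL miR-ctl. It was at 4.02 and 4.09 CPM in OL miR-145 and at 5.33 and 3.01 CPM with both mimics. The mimic groups lay above OL miR-ctl, and they overlapped each other.

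Sgcb (ENSRNOG00000002135) encodes beta-sarcoglycan of the membrane-spanning sarcoglycan group and was at 199 and 168 CPM in OL miR-145, at 184 and 139 CPM with both mimics and at 176 and 163 CPM in OL miR-ctl. It was at 65.7 and 70.4 CPM in OPC anti-miR-ctl and at 54.1 and 63.3 CPM in OPC anti-miR-145. The 3 OL groups overlapped and lay above the OPCs. Sgce (ENSRNOG00000046905) encodes epsilon-sarcoglycan, a form found also outside muscle. Its level was the flattest of the 7, with all 10 libraries between 38.6 and 46.8 CPM.

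**Figure D1:**
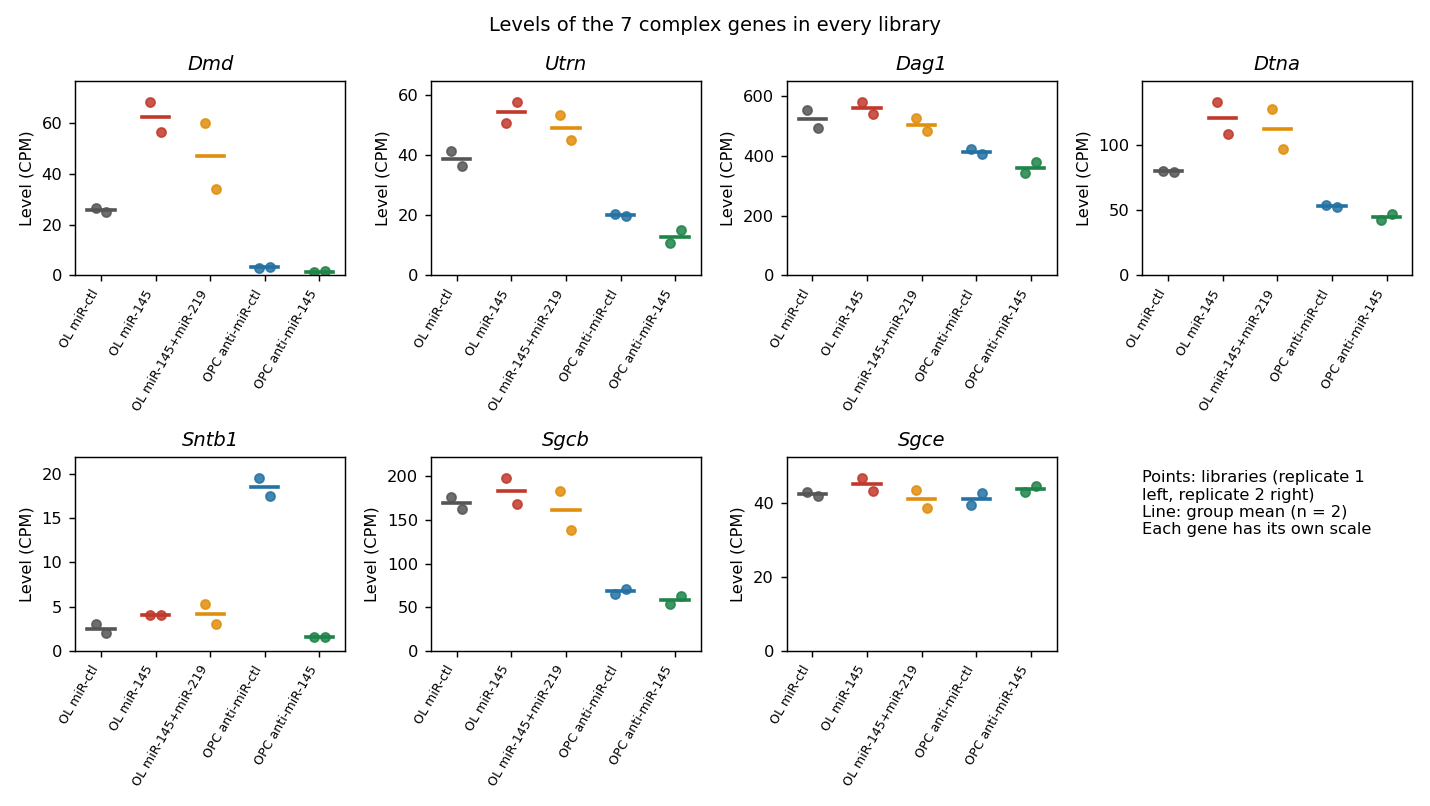
Level of each complex gene in CPM after TMM normalization (vertical axis of each panel, starting at 0) in the 5 groups; each point is a library and each line the mean of the 2 libraries of a group. Dmd runs from 1.11 CPM in OPC anti-miR-145 to 68.5 CPM in OL miR-145, Sntb1 is highest in OPC anti-miR-ctl, and Sgce stays between 38.6 and 46.8 CPM.

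Blocking miR-145-5p in OPCs was compared with the scrambled inhibitor to ask how the complex responds to loss of the microRNA. The mimic contrast behind the choice of genes holds none of these libraries. Earlier results of these data were known when the genes were chosen, so the choice may not be independent of this comparison. Sntb1, Dmd and Utrn fell, and no member rose. In edgeR's quasi-likelihood fit of 15496 genes, with p-values adjusted by Benjamini-Hochberg, Sntb1 was 12.3-fold lower with the inhibitor (log2 fold change -3.62, SE 0.14, adjusted p = 2.72e-05). Dmd was 2.39-fold lower (log2 fold change -1.26, SE 0.23, adjusted p = 0.00742). Utrn was 1.58-fold lower (log2 fold change -0.66, SE 0.16, adjusted p = 0.0226). All 3 were lower in both inhibitor libraries than in either control library, as were 5065 of all 15496 genes. The other 4 did not pass. Dtna had a log2 fold change of -0.27 (SE 0.09, adjusted p = 0.0633), Dag1 of -0.22 (SE 0.09, adjusted p = 0.104) and Sgcb of -0.23 (SE 0.10, adjusted p = 0.13), each with both inhibitor libraries below the controls. Sgce had a log2 fold change of 0.08 (SE 0.09, adjusted p = 0.544), with both inhibitor libraries above the controls, as in 5557 of all 15496 genes.

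Thus 3 of 7 members were called lower and 0 higher, where 16% of all genes tested were called lower and 12.1% higher. At an unadjusted p under 0.05, 5 of the 7 passed, beside 6331 of all 15496 genes. The median log2 fold change of the members was -0.27, and that of all genes was 0.00 (0.0045 before rounding). Without OPC anti-miR-145 replicate 2, the log2 fold changes of Dag1, Dtna and Sgcb were -0.28, -0.34 and -0.33. In every alternative run that kept all libraries of the comparison, the same number of 3 was called. With 2 libraries a group, an exact permutation test of a single gene cannot give a p under 0.333.

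Markers of other cells moved in this comparison as well, where 12.1% of all genes were called higher and 16% lower. Of 8 microglia markers 5 were called higher with the inhibitor and 3 lower, with sums of 993 and 805 CPM against 860 and 816 CPM. Of 8 astrocyte markers 1 was called higher (Gfap) and 3 lower (Slc1a2, Slc1a3 and Aldoc), with sums of 404 and 448 CPM against 655 and 624 CPM. Of the 5 OPC markers 1 was called higher and 2 lower, and of the 8 maturing OL markers 1 was called higher and 2 lower. Of 7 fibroblast and mural markers found, 0 were called higher and 1 lower (sums of 11.3 and 9.84 CPM with the inhibitor, and of 11.6 CPM or slightly more with the control). Of 4 neuron markers found, 2 were called higher (Rbfox3 and Tubb3) and 0 lower, with sums of 106 and 104 CPM against 73.2 and 71.0 CPM. Of 5 Schwann cell markers 1 was called lower and 0 higher, with sums of 21.2 and 17.8 CPM against 26.2 and 29.0 CPM. Of these 5, 4 had both inhibitor libraries below the controls, as did 5065 of all 15496 genes. Of 4 endothelial markers found, 0 were called (sums of 2.06 and 2.69 CPM against 1.69 and 1.40 CPM). In no list was a found marker at 0 in both libraries of a group. The part of these cells in the differences of Dmd, Utrn and Sntb1 was not tested.

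Control OLs were compared with control OPCs to see how the complex differs between the stages. This comparison shares the OL miR-ctl libraries with the contrast behind the choice of genes. The stages also differ in days of culture, time after transfection and the kind of scrambled oligonucleotide, which cannot be told apart from stage here. Dmd was 8.28-fold higher in OLs (log2 fold change 3.05, SE 0.12, adjusted p = 6.6e-05 in edgeR over 15721 genes). Sgcb was 2.47-fold higher (log2 fold change 1.30, SE 0.09, adjusted p = 0.00023) and Utrn 1.92-fold higher (log2 fold change 0.94, SE 0.10, adjusted p = 0.00124). Dtna was 1.48-fold higher (log2 fold change 0.57, SE 0.07, adjusted p = 0.00209). Dag1 was 1.25-fold higher (log2 fold change 0.33, SE 0.09, adjusted p = 0.0285). Sntb1 went the other way and was 7.50-fold lower in OLs (log2 fold change -2.91, SE 0.22, adjusted p = 0.000389). Sgce did not pass (log2 fold change 0.04, SE 0.09, adjusted p = 0.734).

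In all, 5 members were called higher and 1 lower in OLs, where 28.8% of the genes tested were called higher and 28.7% lower. The median log2 fold change was 0.57 over the members and 0.01 over all genes. The call of Dag1 was lost without OPC anti-miR-ctl replicate 1 (adjusted p = 0.157 in edgeR) and without replicate 2 of that group (adjusted p = 0.23), and the other calls held in each alternative. Astrocyte markers moved with this comparison, with 7 of 8 called higher in OLs and sums of 6346 and 5344 CPM against 655 and 624 CPM. Other lists moved too. Schwann cell markers had 4 of 5 called higher and 1 lower in OLs (sums of 72.5 and 176 CPM against 26.2 and 29.0 CPM). Endothelial markers had 3 of 4 called higher and 1 lower (27.4 and 19.1 CPM against 1.69 and 1.40 CPM). Fibroblast and mural markers had 2 of 7 called higher and 0 lower (39.1 and 29.5 CPM against 11.6 CPM or slightly more). Microglia markers had 0 of 8 called higher and 3 lower (348 and 526 CPM against 860 and 816 CPM), and neuron markers 1 of 4 higher and 2 lower (123 and 128 CPM against 73.2 and 71.0 CPM). The part of these cells in the levels of Dmd and its partners was not tested.

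**Figure D2:**
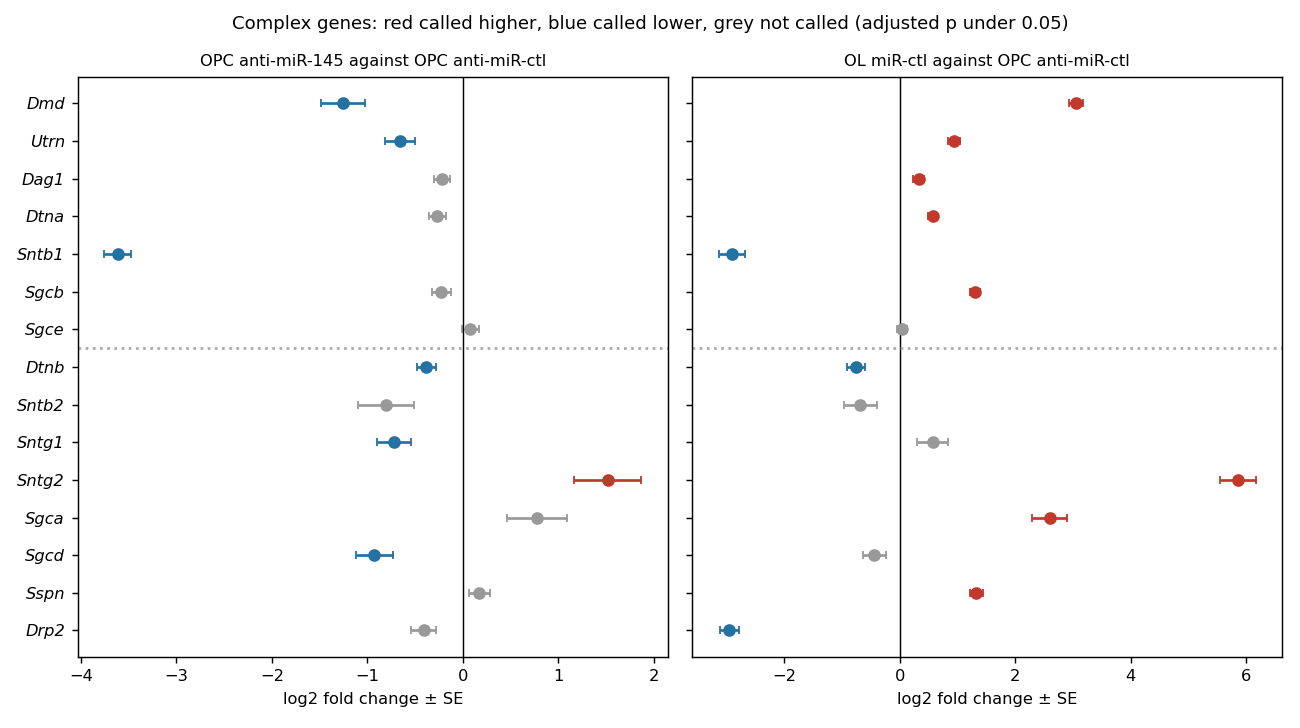
Log2 fold change (horizontal axis) of the 7 members (above the dotted line) and of 8 other core genes of the complex (below it) in OPC anti-miR-145 against OPC anti-miR-ctl (left) and OL miR-ctl against OPC anti-miR-ctl (right); points are edgeR estimates, bars 1 SE to each side, and genes called higher are red, called lower blue and not called grey. Sntb1 lies at -3.62 and -2.91, whereas Dmd lies at -1.26 with the inhibitor and at 3.05 in OLs.

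The miR-145 mimic in OLs is the contrast from which the genes were chosen by their values, and its folds are a description. The level of Dmd given above was higher in both mimic libraries than in either control, with a log2 fold change of 1.28. Sntb1 had a log2 fold change of 0.72, Dtna of 0.61 and Utrn of 0.49, also with groups that did not overlap. Sgce differed by only 0.09 on the log2 scale, again without overlap. Sgcb (0.12) and Dag1 (0.10) overlapped. The groups were thus apart with higher mimic values for 5 members and lower for 0, beside 22.9% and 24.4% of all 15461 genes. The median log2 fold change was 0.49 over the members and -0.01 over all genes, and nothing is read from either, since the members were chosen here. With each library left out in turn, Dmd ranged from 1.14 to 1.41, Utrn from 0.39 to 0.59, Dtna from 0.46 to 0.74 and Sntb1 from 0.44 to 1.06.

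With both mimics, which share the OL miR-ctl libraries, the log2 fold change of Dmd against the control was 0.88. It was 0.75 for Sntb1, 0.50 for Dtna and 0.35 for Utrn, and these 4 members had groups apart with higher values and 0 with lower, beside 17.2% and 19.5% of genes. Dag1 (-0.05), Sgcb (-0.07) and Sgce (-0.04) overlapped. Replicate 2 of this group had the lower value for all 7 members, and with each library left out the log2 fold change of Dmd ran from 0.41 to 1.22. Without OL miR-145+miR-219 replicate 1, all 7 members had groups apart, in either direction. A group of 1 library is more easily apart, and the share over all genes was not computed for that run. Nothing is therefore read from this count.

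Set against the miR-145 mimic alone, the addition of miR-219 gave groups apart for 0 members with higher values and 1 with lower, Dag1 (log2 fold change -0.16), beside 13.2% and 11.6% of genes. Dmd had a log2 fold change of -0.41, from -0.88 to -0.06 with each library left out, and its libraries overlapped. The other 5 lay between -0.19 and 0.03.

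**Figure D3:**
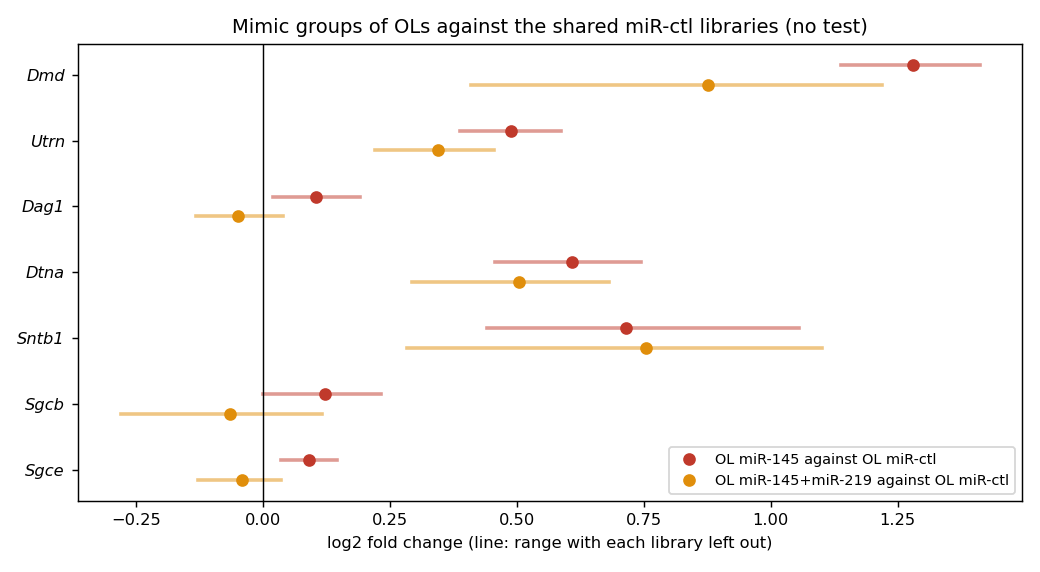
Log2 fold change (horizontal axis) of the 7 members (vertical axis) in OL miR-145 (red) and OL miR-145+miR-219 (orange), each against the shared OL miR-ctl libraries, with lines from the lowest to the highest value with each library left out. Dmd is at 1.28 with miR-145 and 0.88 with both mimics, and the values are a description because the members were chosen on the first of these contrasts.

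Astrocyte markers stood in the same order over the 6 OL libraries as Dmd. The summed level of Gfap, Aqp4, Aldh1l1, Slc1a2, Slc1a3, Gja1, Gjb6 and Aldoc was 13015 and 8858 CPM with miR-145. It was 10746 and 6377 CPM with both mimics and 6346 and 5344 CPM in OL miR-ctl. Of these 8 markers, 7 had groups apart with higher values with miR-145 and 4 with both mimics, and none was at 0 in both libraries of a group. Over all genes, 22.9% were apart and higher than OL miR-ctl with miR-145 and 24.4% apart and lower. With both mimics these shares were 17.2% and 19.5%, and the marker counts of this paragraph stand beside them. The sum of the 7 fibroblast and mural markers found was 64.4 and 103 CPM with miR-145, 71.2 and 60.9 CPM with both mimics and 39.1 and 29.5 CPM in OL miR-ctl. All 7 had groups apart and higher with miR-145, though Dcn reached at most 1.84 CPM and Acta2 0.518 CPM. Col1a1 and Col3a1 were at 1.75 and 3.05 CPM in OL miR-145 replicate 1 and at 16.4 and 29.9 CPM in replicate 2. Of the 8 maturing OL markers, 3 had groups apart and lower with miR-145, and with both mimics 1 was lower and 1 higher. Of the 5 OPC markers, 3 had groups apart and lower with miR-145 and 3 with both mimics. Of the 8 microglia markers, 2 had groups apart and higher with miR-145 and 3 with both mimics. Endothelial markers (4 of 6 found), Schwann cell markers (5) and neuron markers (4 of 5 found) had sums of 9.65 to 27.4, 67.2 to 176 and 105 to 136 CPM in OLs. The part of these cells in the levels of the complex was not tested.

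**Figure D4:**
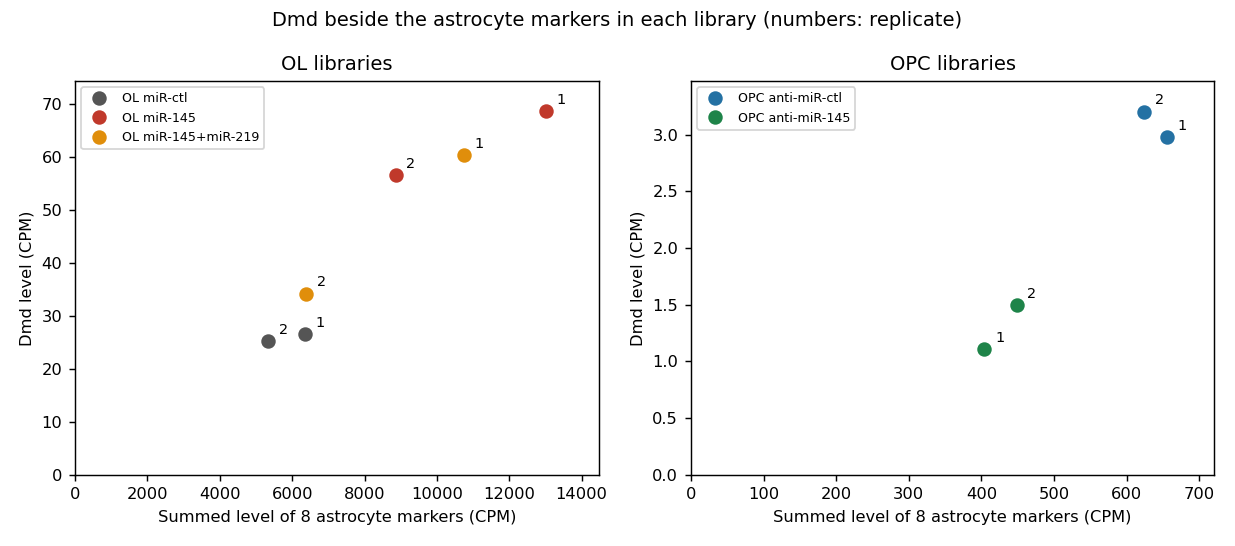
Level of Dmd in CPM (vertical axis) against the summed level of 8 astrocyte markers in CPM (horizontal axis), with OL libraries in the left panel and OPC libraries in the right, a point for each library, a colour for each group and the replicate number beside each point. The 4 OPC libraries reach at most 3.20 CPM of Dmd and 655 CPM of astrocyte markers, and among the 6 OL libraries those with more astrocyte marker RNA also have more Dmd.

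The genes whose log2(CPM + 1) followed that of Dmd most closely over the 6 OL libraries were Fry, Aifm2, Slc14a1, Rab31 and Pdk1, with Pearson correlations of 0.999, 0.998, 0.998, 0.997 and 0.996 among 10162 genes. Fry was at 32.7 and 28.8 CPM with miR-145, at 29.4 and 18.4 CPM with both mimics and at 15.3 and 13.9 CPM in OL miR-ctl. Slc14a1, a urea transporter, was at 428 and 347, at 364 and 217 and at 166 and 171 CPM in the same order. These points share their libraries and treatments, so the correlations only describe a shared pattern. On the same scale Dtna had a correlation of 0.974 with Dmd and Utrn of 0.901, while Dag1, Sgcb and Sgce had 0.544, 0.556 and 0.606. Of the astrocyte markers Gja1 had 0.981, Aqp4 0.976, Gfap 0.962, Slc1a2 0.945, Aldoc 0.887 and Slc1a3 0.861. Aldh1l1 and Gjb6 were too low in level to be compared. The maturing OL markers ran in both directions. The premyelinating OL gene Enpp6 had -0.904, Cnp -0.826, Myrf -0.814, Mag -0.40 and the myelin gene Mbp -0.36, whereas the late myelin genes Mog and Mobp had 0.239 and 0.369.

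The other core genes of the complex were listed beside the members, and 10 of 11 were found by symbol. Among the syntrophins, Sntg2 (gamma-2) was called in both tested comparisons. It was at 0.277 and 0.301 CPM in OPC anti-miR-ctl, at 0.754 and 0.920 CPM in OPC anti-miR-145 and at 20.3 and 13.7 CPM in OL miR-ctl. It rose with the inhibitor (log2 fold change 1.51, SE 0.35, adjusted p = 0.0195 in edgeR) and was higher in OLs (log2 fold change 5.85, SE 0.30, adjusted p = 0.000124). With miR-145 it was at 10.8 and 7.43 CPM, below both OL controls. Sntg1 (gamma-1) fell with the inhibitor (log2 fold change -0.72, SE 0.18, adjusted p = 0.0235), from 4.11 and 3.75 CPM to 2.44 and 2.37 CPM. It did not pass between the stages (log2 fold change 0.57, adjusted p = 0.127). Sntb2 (beta-2) did not pass in either, with log2 fold changes of -0.80 and -0.69. Its libraries were at 2.21 and 2.40 CPM with miR-145, above OL miR-ctl at 1.56 and 1.41 CPM.

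Of the sarcoglycans outside the selected set, Sgcd (delta) fell with the inhibitor from 3.39 and 3.61 CPM to 1.73 and 1.98 CPM (log2 fold change -0.93, SE 0.19, adjusted p = 0.0122 in edgeR). Between the stages Sgcd did not pass (log2 fold change -0.44, adjusted p = 0.111). Sgca (alpha), the muscle form related to Sgce, was higher in OLs, at 3.61 and 5.49 CPM against 0.715 and 0.766 CPM (log2 fold change 2.60, SE 0.30, adjusted p = 0.00153). With the inhibitor it did not pass (log2 fold change 0.78, adjusted p = 0.108).

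Sspn encodes sarcospan and was higher in OLs, at 35.4 and 30.9 CPM against 12.6 and 13.6 CPM (log2 fold change 1.32, SE 0.11, adjusted p = 0.000561 in edgeR). It had a log2 fold change of 0.17 with the inhibitor (adjusted p = 0.297). With miR-145 it was at 49.5 and 44.5 CPM, above both OL controls. Dtnb, the beta-dystrobrevin gene, fell with the inhibitor (log2 fold change -0.38, SE 0.10, adjusted p = 0.0285), from 21.9 and 21.8 CPM to 17.5 and 16.3 CPM, and was lower in OLs (log2 fold change -0.75, SE 0.16, adjusted p = 0.0108). Drp2, a dystrophin relative known from Schwann cells, was lower in OLs, at 1.66 and 1.41 CPM against 12.2 and 11.4 CPM (log2 fold change -2.95, SE 0.17, adjusted p = 0.000159). With the inhibitor Drp2 had a log2 fold change of -0.41 that did not pass (adjusted p = 0.0567).

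Counted together, 1 of the 9 other core genes tested was called higher and 3 lower with the inhibitor, beside 12.1% and 16% of all genes. In OLs 5 of 10 were called higher and 2 lower, beside 28.8% and 28.7% of all genes. Their median log2 fold changes were -0.38 and 0.79, beside 0.00 and 0.01 over all genes. With miR-145 in OLs 7 of 10 were above 0, and 4 had groups apart with higher values and 1 with lower, Sntg2, beside 22.9% and 24.4% of all genes.

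Proteins that attach to the complex were found for 6 of 8 symbols. Aqp4, the aquaporin-4 water channel, and Mlc1, a membrane protein of astrocyte junctions, were nearly absent from OPCs, at 0.164 to 0.920 CPM and 0.274 to 1.03 CPM. In OL miR-ctl Aqp4 was at 168 and 186 CPM and Mlc1 at 176 and 198 CPM (log2 fold changes of 9.43 and 8.99 over OPC anti-miR-ctl, each with an adjusted p of 3.07e-05 in edgeR). With miR-145 Aqp4 was at 432 and 342 CPM and Mlc1 at 608 and 474 CPM. Both mimic groups lay above the OL controls for these genes, with log2 fold changes of 1.14 and 1.54 for miR-145. Aqp4 is also among the 8 astrocyte markers. Of the 6 genes found, 3 had groups apart with higher values with miR-145 and 1 with lower, Grb2 (log2 fold change -0.13), beside 22.9% and 24.4% of all genes. Plec, the cytoskeletal linker plectin, was at 108 and 120 CPM in OL miR-ctl and 12.9 and 12.5 CPM in OPC anti-miR-ctl (log2 fold change 3.15, SE 0.09, adjusted p = 4.53e-05). Ank2 and Ank3, the ankyrins B and G, were also called higher in OLs, so 5 of 6 were higher and 0 lower, beside 28.8% and 28.7% of all genes, and Grb2, a signalling adaptor, did not pass. With the inhibitor edgeR called 0 of 6 in either direction, beside 12.1% of all genes called higher and 16% lower. An unadjusted p under 0.05 was found for 2 of the 6, beside 6331 of all 15496 genes.

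Enzymes that build the sugar chain on dystroglycan were found for all 18 symbols, on 19 gene IDs because B4gat1 has 2, whose counts are uncertain. With the inhibitor 4 of the 19 were called higher and 0 lower, beside 12.1% and 16% of all genes. Among them were Dpm2 of dolichol phosphate mannose synthesis (log2 fold change 0.43, SE 0.12, adjusted p = 0.031 in edgeR), Pomgnt2 (0.43, adjusted p = 0.0318) and the kinase Pomk (0.29, adjusted p = 0.0372). Dpm2 was at 64.1 and 53.6 CPM with the inhibitor and at 41.7 and 44.7 CPM with the control. In OLs 10 of the 19 were called higher than in OPCs and 0 lower, beside 28.8% and 28.7% of all genes. The more abundant ID of B4gat1 had a log2 fold change of 0.79 (adjusted p = 0.00099). With the miR-145 mimic the median log2 fold change was -0.03 over the enzymes and -0.01 over all genes, and 3 enzymes had groups apart with higher values and 4 with lower, beside 22.9% and 24.4% of all genes.

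Extracellular ligands of dystroglycan were found for 10 of 12 symbols, and 9 were tested. With the inhibitor 6 of the 9 were called lower and 1 higher, beside 16% and 12.1% of all genes. Among those that fell were the laminin chains Lama1 (log2 fold change -1.45, adjusted p = 0.0139 in edgeR) and Lama4 (-0.41, adjusted p = 0.0181), as well as Lama5, Agrn and Slit2, whereas Nrxn3 rose (0.68, adjusted p = 0.0182).

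Between the stages, Lama5 was higher in OLs (log2 fold change 2.80, SE 0.20, adjusted p = 0.000312 in edgeR), at 40.3 and 29.4 CPM against 5.40 and 4.49 CPM. Nrxn3 was higher as well (1.19, adjusted p = 0.0037). Lama4 (-2.68, adjusted p = 0.000772), Lama1 (-2.81, adjusted p = 0.00114), Agrn (-1.31, adjusted p = 0.00279) and Nrxn2 were lower. Lama5 was at 80.4 and 78.8 CPM with miR-145 (log2 fold change 1.20). Lama2, the laminin chain of basement membranes that contact glia, was at 0.977 and 2.70 CPM against 0.351 and 0.276 CPM. Lama1 and Egflam were also over 1 on the log2 scale without overlap, at levels under 1 CPM. Of the 10 ligands, 6 had groups apart with higher values with miR-145 and 1 with lower, beside 22.9% and 24.4% of all genes. The lower one was Lama4, at 36.9 and 44.4 CPM with miR-145 and 79.5 and 47.2 CPM in OL miR-ctl.

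Over these 4 lists, 6 of the 43 genes tested were called higher and 9 lower with the inhibitor (12.1% and 16% of all genes), and 22 of 44 higher and 6 lower in OLs (28.8% and 28.7% of all genes). The 15 calls with the inhibitor became 24 without OPC anti-miR-145 replicate 2, 3 without OPC anti-miR-ctl replicate 1 and 5 without OPC anti-miR-ctl replicate 2, and 7 when all 5 groups shared a single fit.

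**Figure D5:**
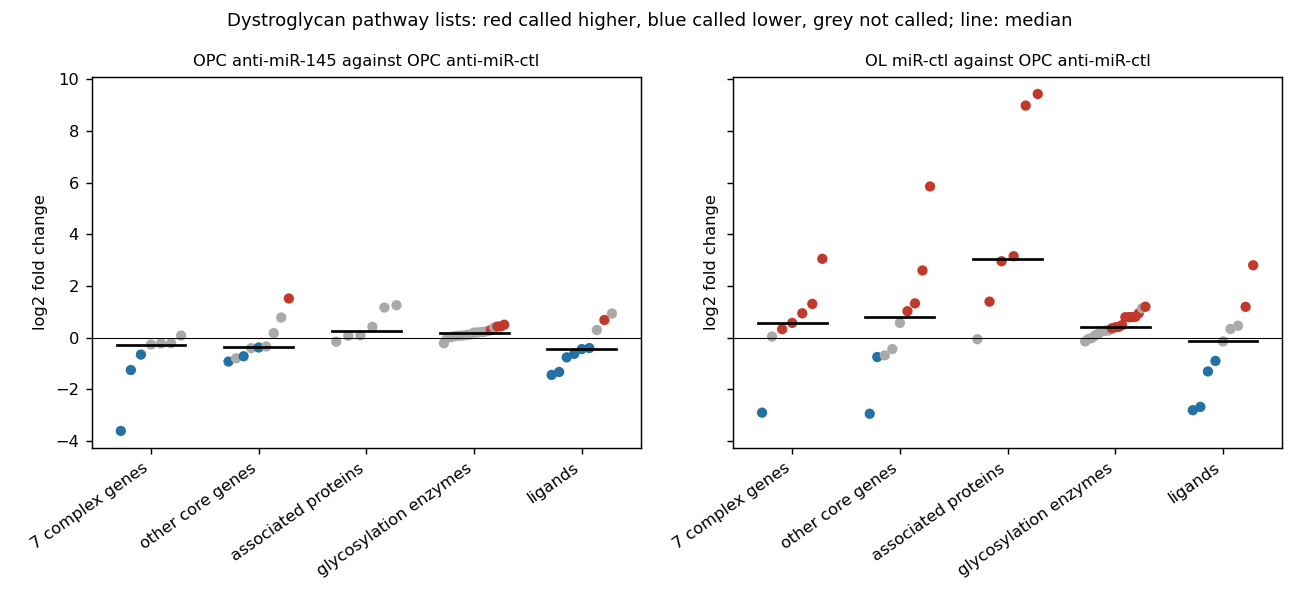
Log2 fold change (vertical axis) of the tested genes among the members and of 4 further lists (horizontal axis) in OPC anti-miR-145 against OPC anti-miR-ctl (left) and OL miR-ctl against OPC anti-miR-ctl (right); each point is a gene, red where called higher, blue where called lower and grey where not called, and each line is the median of a list. The members' medians are -0.27 with the inhibitor and 0.57 in OLs, and the associated proteins spread from -0.06 to 9.43 in OLs; a list's line also counts a gene that is not drawn.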

How the data were processed

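RNA of 10 libraries from rat OLs and OPCs (2 for each of 5 groups, assigned from sample titles) was prepared with TruSeq Stranded mRNA and sequenced on an Illumina instrument. The authors assigned reads to GENCODE Rnor6.0 transcripts with Salmon 0.12.0, per the submitters' processing notes, and deposited estimated counts per gene loaded with tximport, without normalization. Their deposited DESeq2 table of the miR-145 mimic comparison holds a mean normalized signal, folds and p-values, of which none was used. Only its gene symbols were read (14561 for 16129 genes, of which 266 stand on several IDs). Between 16.0% and 17.5% of values in a library were not whole, and counts were rounded. No column lacked a sample.

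Members and gene lists were chosen with earlier results of these data known. The text names all members, tested core genes, up to 3 called genes of each other list per direction and comparison, genes of those lists apart by over 1 on the log2 scale with the mimic, and the 5 genes closest to Dmd with a mean of at least 5 CPM. Pomk, Ank2, Ank3, Grb2, Nrxn2, Slit2, Lama5 and Agrn with the inhibitor, and Lama4 with the mimic, were added after their values were seen. So were single markers and the genes compared with Dmd beyond those 5.

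The 4 libraries of a comparison were fitted alone with edgeR 4.0.16 (TMM, estimateDisp, glmQLFit and glmQLFTest) in R 4.3.3. A gene was tested where 2 or more libraries held 5 or more counts, and was called at an adjusted p under 0.05 (Benjamini-Hochberg, all tested genes). The standard error is the log2 fold change divided by the square root of F. Groups are called apart where no library overlaps. Alternatives were DESeq2 1.42.0, its size factors within edgeR, no filter, a filter of 20 counts, a single fit of all groups, a term for the replicate number, and leaving out each library. Fits were tested on simulated data. Summaries used Python 3.11.15 with pandas 2.3.3, numpy 2.4.6 and matplotlib 3.10.9. Sequences came from RefSeq tables of GRCr8, and no coordinates of the files were used. Some genes of the lists are counted and not reported here by name.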

Additional observations from a re-analysis of the deposited data

How the results depend on the processing

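With 2 libraries a group, each comparison rests on 4 libraries, and low levels such as that of Dmd in OPCs are limited by depth. Across the alternatives, the adjusted p with the inhibitor ran from 0.00121 to 0.0286 for Dmd, from 3.79e-05 to 0.0475 for Utrn and from 4.26e-59 to 0.000349 for Sntb1, so these 3 calls held in each, in edgeR and in DESeq2. Calls with the inhibitor over all genes numbered 4348, 2657 in a single fit of all 5 groups and 2424 to 7130 with each library left out (2424 and 2530 without OPC anti-miR-ctl replicates 1 and 2, 7130 without OPC anti-miR-145 replicate 2). The member calls ran from 3 to 6 and those of the other pathway genes from 3 to 24 (main count 15) with each library left out, and the single fit gave 7 of the latter. Between the stages 9042 genes were called, and 5016 to 10591 with each library left out (5071 and 5016 without OPC anti-miR-ctl replicates 1 and 2). Member calls there ran from 5 to 6 and calls of other pathway genes from 21 to 32. The log2 fold change of Sgce between the stages (0.04) turned to -0.019 without OPC anti-miR-ctl replicate 1 and ran from -0.019 to 0.088 with each library left out. Where a library was left out, its group had 1 library, whose spread was taken to be that of the other group, and the cause of these shifts was not tested. Members with groups apart numbered 5 to 7 with each library left out for miR-145, 4 to 7 for both mimics and 2 to 7 between the mimic groups (7 without OL miR-145+miR-219 replicate 1 in both of the latter), since a group of 1 library is more easily apart. With a library left out, the share of all genes apart was not computed. DESeq2's size factors gave 2 members apart between the mimic groups in place of 1.

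Groups share replicate numbers, but no source says that a number stands for the same culture in different groups, and with 2 pairs the numbers were not taken as a pairing (correlation of deviations -0.07 with the inhibitor, 0.03 between the stages and 0.24 to 0.42 among OLs). With the replicate number as a block, calls with the inhibitor were 3963 over all genes, 3 members and 14 other pathway genes, and calls between the stages were 8534 over all genes and 6 members.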
